A study of Drosophila melanogaster with 2 samples.

Results

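The trunk gap genes giant (gt), knirps (kni), knirps-like (knrl) and hunchback (hb) are described here by the binding of Krüppel (Kr) in and around them. These 4 genes of 13945 protein-coding genes were chosen by name, and every summit in a gene body or within 20 kb of it was taken from 4 deposited peak lists. Their windows held 7 of the 2102 summits of the list thresholded by irreproducible discovery rate (IDR), and 127 of the 30000 summits of the permissive list called on pooled reads. The q-value deposited for each peak is at most 0.00325 in the IDR list but reaches 0.763 in the permissive list. Weak summits of the permissive list may therefore be background. The material was whole Drosophila melanogaster embryos of mixed sex, aged 0 to 10 h, from 1 transgenic line whose Kr protein carries a GFP tag at its C-terminal end. An antibody to GFP was used for chromatin immunoprecipitation and sequencing in 1 group of 2 biological replicates, numbered 2 and 3. Whether the tagged copy replaces or adds to the resident Kr gene is not given in the sources used here. The group has no counterpart of another genotype or treatment, so each value below describes 1 condition.

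Gap genes divide the early embryo into broad domains and set each other's borders. Kr is a zinc-finger factor that acts mainly as a repressor and occupies the central domain. gt encodes a basic leucine zipper repressor, expressed in an anterior and a posterior domain that flank Kr, and Kr and gt repress each other. hb encodes a zinc-finger factor of maternal and zygotic origin whose anterior domain borders that of Kr. kni encodes a repressor related to nuclear receptors that acts behind Kr, and knrl is its neighbour and close relative, with a much longer transcription unit. These genes act as gap genes early, whereas the collection also holds hours of later development. Early binding and binding in those later hours cannot be told apart here. In such whole embryos, fewer cells with a bound site and weaker binding in each cell cannot be told apart.

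Kr peaks of the IDR list stood at 3 of the 4 genes. There was 1 summit at gt, 1 at kni, 5 at hb and 0 at knrl. Of all protein-coding genes, 41.7% had an IDR summit in the same window, so that count alone stands near the background of a wide window. At least 1, as at gt and kni, is thus common, while at least 5, as at hb, were found at 2.67% of protein-coding genes. The 3 genes also had an IDR summit in the body or within 5 kb, which 18.0% of protein-coding genes had. An IDR summit among the 200 highest lay in the windows of all 3, against 7.51% of protein-coding genes. That rank limit was chosen after the values were seen. With 4 genes known beforehand to carry peaks, no test was made of these counts.

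Printed below are 201 bp of dm6 centred on each of the 4 highest summits. They are given on the minus strand, which is the coding strand of all 4 genes. Capitals mark the Kr core word AAGGGTT or its reverse complement AACCCTT. The gt promoter window is chrX:2429051-2429251, the kni window chr3L:20696599-20696799, the hb upstream window chr3R:8701365-8701565 and the hb downstream window chr3R:8684674-8684874.
gt: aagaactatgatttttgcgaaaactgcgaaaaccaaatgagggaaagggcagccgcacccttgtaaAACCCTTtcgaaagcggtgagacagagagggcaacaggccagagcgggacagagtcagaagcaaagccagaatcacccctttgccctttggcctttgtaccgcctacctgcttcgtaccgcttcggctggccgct
kni: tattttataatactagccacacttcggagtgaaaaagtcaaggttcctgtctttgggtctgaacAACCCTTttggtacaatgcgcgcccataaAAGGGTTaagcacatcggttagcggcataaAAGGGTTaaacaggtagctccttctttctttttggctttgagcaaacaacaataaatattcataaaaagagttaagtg
hb upstream: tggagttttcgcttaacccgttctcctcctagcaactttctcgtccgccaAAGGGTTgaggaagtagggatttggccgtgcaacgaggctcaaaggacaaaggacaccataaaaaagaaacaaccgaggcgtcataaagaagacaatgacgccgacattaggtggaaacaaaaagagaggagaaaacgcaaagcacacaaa
hb downstream: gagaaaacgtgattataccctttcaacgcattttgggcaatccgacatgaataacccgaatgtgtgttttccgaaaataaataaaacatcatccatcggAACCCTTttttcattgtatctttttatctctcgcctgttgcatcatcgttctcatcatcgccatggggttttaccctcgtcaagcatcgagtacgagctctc
Each of the 4 held the word. The kni window held 3 copies, centred at -33, -4 and 26 bp from the summit, and the Zelda word CAGGTAG, linked to early zygotic activation, follows the last of them after a few bases. The gt window held 1 copy at -31 bp and also the Zelda word, on the other strand. The copies at hb were centred at -47 bp upstream and 2 bp downstream. Distances in this paragraph run along the printed strand.

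At gt (X, 2427113 to 2428967, FBgn0001150, minus strand) the single IDR peak, at 2429056 to 2429237, lay just upstream of the start site, which it did not reach. Its signal was 215 in replicate 2 and 150 in replicate 3 (mean 182 ± 45.9, SD, n = 2), where it ranked 49 and 71. In the pooled list it had a signal of 358 and rank 53. Signal is the authors' value for a peak, of unstated scale, and ranks peaks within its own list. The summit lay 184 bp upstream of the only annotated transcription start site (TSS) of gt, and this was the highest peak of the 4 genes in both replicates. No other peak within 20 kb came near it. The next in the pooled list had a signal of 88.1 and rank 3076, at 20026 bp downstream of the TSS. Outside the window stood a second strong IDR peak, at 27520 bp beyond the 3′ end of gt and 11308 bp from the nearest TSS, that of CG12496. It ranked 126 with 274 in the pooled list, and had 197 in replicate 2 and 75.8 in replicate 3.

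Further upstream of gt lie enhancers whose published names give their rough distance in kb: gt_(-1), gt_(-3), gt_(-6) and gt_(-10). Their boundaries were not used here, so only nominal positions could be compared. The promoter summit was the only pooled summit within 1 kb of the nominal position of gt_(-1). Near gt_(-3), which drives the posterior domain, 3 pooled summits were found, the best with a signal of 46.1, rank 12693 and a q-value of 0.345. The signal of that summit was 19.0 in replicate 2 and 14.7 in replicate 3, close to the lowest listed values of 17.7 and 14.6, and it held the word 32 bp from the summit. A neighbour at -2056 bp had 45.7 in the pooled list, 21.7 in replicate 3 and no copy of the word. Its match in replicate 2 is the same peak of 19.0 that the first summit has. Near gt_(-6) the summit at -6553 bp had 69.6 in the pooled list, 20.1 in replicate 2 and 42.6 in replicate 3. It also had the word, 3 bp from the summit. Replicate 2 had a stronger summit beside it, at -6363 bp, with 32.3. The best summit near gt_(-10), at -10842 bp, had 71.4 in the pooled list, 52.4 in replicate 2 and 22.6 in replicate 3. The replicates thus disagreed on which of these upstream summits was higher, and none of them was in the IDR list.

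kni (3L, 20692330 to 20695378, FBgn0001320, minus strand) has 2 annotated TSSs, of transcripts RA and RB. Its IDR peak, at 20696592 to 20696747, was intergenic and lay 1321 bp upstream of the RA start and 2143 bp upstream of the RB start. Its signal was 148 in replicate 2 and 119 in replicate 3 (mean 134 ± 20.6, SD, n = 2), with ranks of 190 and 143. In the pooled list it ranked 150 with 262. Among the 4 highest summits this one had the smallest ratio between replicates, 1.25, and was the only one ranked higher in replicate 3. A 4th copy of the word lay farther from the summit, so that 4 copies fell within 202 bp, from 20696534 to 20696735.

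A weaker summit sat on the kni start itself, 26 bp upstream of the RA TSS. It ranked 2106 in the pooled list, just below the 2102 peaks of the IDR list, with a pooled signal of 103. In replicate 2 it had 70.8 and rank 1749, which would be inside a list of 2102, and in replicate 3 it had 32.5 and rank 4616. Its 201 bp (chr3L:20695304-20695504), shown for contrast with the upstream site, held no copy of the word.
kni start: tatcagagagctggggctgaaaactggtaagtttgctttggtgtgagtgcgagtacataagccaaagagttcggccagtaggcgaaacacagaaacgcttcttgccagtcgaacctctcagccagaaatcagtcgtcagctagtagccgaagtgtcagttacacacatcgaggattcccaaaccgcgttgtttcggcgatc
Near the nominal positions of the kni enhancers kni_(-5) and kni_(+1) the best pooled summits had signals of 42.1 and 43.0, ranks 15184 and 14593. Their q-values were 0.434 and 0.409, and their signals were low in the list. Those signals are close to the median of all pooled peaks, 42.4. The summit near kni_(-5) had 24.2 in replicate 2. Its match in replicate 3, with 23.6, lay 250 bp away at -3918 bp, on a neighbouring pooled summit. The summit near kni_(+1), 37 bp downstream of the RB start, had 21.7 in replicate 2, from a match 169 bp away, and 24.8 in replicate 3.

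hb (3R, 8690980 to 8697822, FBgn0001180, minus strand) has a distal start, that of transcript RB, and a proximal start 3222 bp downstream, that of transcript RA, known as the promoters P1 and P2. Of the 7 IDR summits, 5 fell in its window, 2 upstream and 3 downstream, and none in the gene. The hb upstream site (8701245 to 8701684) lay 3643 bp upstream of P1 and 6865 bp upstream of P2, on the side where the upstream stripe and shadow enhancers of hb are known to lie. It had 163 in replicate 2 and 94.9 in replicate 3 (mean 129 ± 48.2, SD, n = 2), ranks 135 and 270. Here 4 copies of the word lay within 401 bp, from 8701292 to 8701692, spread on both sides of the summit. A second upstream summit, 7032 bp from P1, had 58.6 in replicate 2 and 56.1 in replicate 3, ranks 2835 and 1164, and no copy of the word.

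The downstream summits of hb stand closer to other genes. The highest of the hb window, at 8684554 to 8684993, had 180 in replicate 2 and 118 in replicate 3 (mean 149 ± 44.3, SD, n = 2) and ranked 119 in the pooled list. It lay 6206 bp beyond the 3′ end of hb and 402 bp from the TSS of CG44227. An overlapping peak 200 bp away ranked 1458 and differed most between replicates, with 92.0 in replicate 2 and 24.1 in replicate 3, a ratio of 3.81. The remaining one, with 79.6 and 50.5 in replicates 2 and 3, lay 120 bp from the TSS of mRpL19, a gene of the mitochondrial ribosome. For 4 of the 7 IDR summits, the nearest protein-coding TSS was that of gt, kni or hb. Assignment of the other 3 to hb rests on the window alone.

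At the promoters of hb, summits were weak and differed between the lists. Around P1 the only pooled summit within 500 bp was at -472 bp, with a signal of 37.7, rank 18831 and a q-value of 0.543. Neither replicate had a summit within 250 bp of it. Called alone, replicate 2 had a summit at -43 bp from P1 with 33.1 and rank 9978, and replicate 3 had one 321 bp downstream with 15.25 and rank 27678. Replicate 2 also had a summit 135 bp downstream of P2, with 22.9 and rank 19840. The pooled summits nearest to P2 lay 914 bp downstream and 1084 bp upstream, with 37.2 and 66.7. The latter sits in the intron between the promoters and had 49.3 in replicate 2 and 19.1 in replicate 3. Binding below the depth of these lists cannot be seen in them, and the depth is unknown.

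knrl (3L, 20597141 to 20620659, FBgn0001323, minus strand) spans 23519 bp against 3049 bp for kni, and both its transcripts share 1 TSS. It had no IDR summit in its window. Its best pooled summit, 13948 bp upstream, ranked 2600 with a signal of 94.3, and had 44.1 in replicate 2 and 44.4 in replicate 3. The next, 2660 bp upstream, ranked 4351 with 75.8, had 44.0 and 27.1 in replicates 2 and 3, and held the word 28 bp from its summit. At the knrl start a summit 58 bp downstream had 39.1 and rank 17582, with no match in replicate 3. Its match in replicate 2, with 33.2, lay 195 bp away at -137 bp, on the other side of the TSS. An IDR peak stood just outside the window, 23348 bp upstream of knrl and 48323 bp from kni. It ranked 785, with 97.3 in replicate 2 and 60.0 in replicate 3, and the nearest TSS was that of CG13251. It was the only IDR summit in the 71.7 kb between knrl and kni, which held 47 pooled summits. At hb, an IDR summit of rank 1239 lay 20245 bp from the gene, 51 bp from the TSS of p, and so outside as well.

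**Figure D1:**
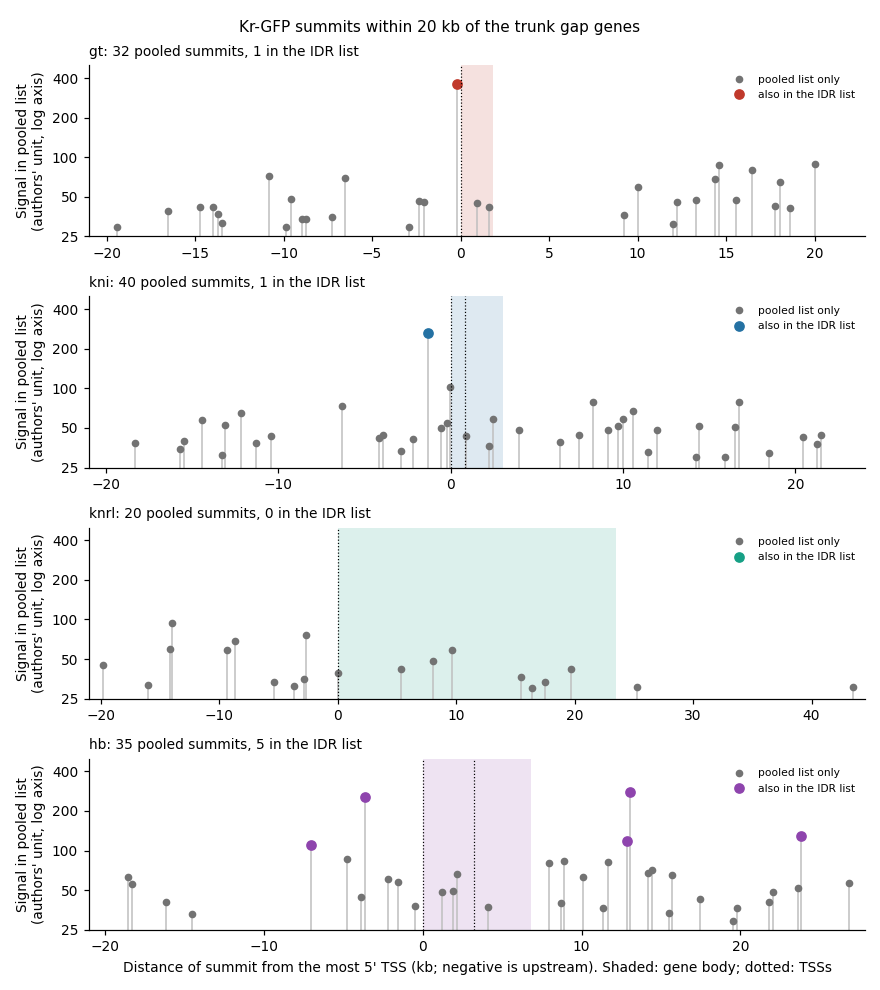
Signal in the pooled list (authors' unit, log axis) of each summit in the gene body or within 20 kb, against its distance in kb from the most 5′ TSS of gt, kni, knrl and hb, with negative values upstream; coloured points are also in the IDR list, shading marks the gene body and dotted lines the TSSs. The coloured summits stand at -184 bp at gt, -1321 bp at kni and on both sides of hb, and knrl has none.

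Each of the 7 IDR summits found a partner no more than 250 bp away in either replicate list. So did 2079 of all 2102, since the IDR list was itself made from these replicate lists. With ratios of 1.04 to 3.81, replicate 2 gave the higher signal at every one of the 7, as its list tends to do: the median ratio over 2079 IDR summits matched in both was 1.46. By rank, 5 of the 7 belonged to the top 2102 of replicate 2 and of replicate 3, as did 54.5% of the 2079. The exceptions were the overlapping downstream peak of hb, with ranks of 821 and 9851, and the summit 7032 bp upstream of P1. Among the 4 highest summits the order changed too, with kni last in replicate 2 and behind only gt in replicate 3.

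**Figure D2:**
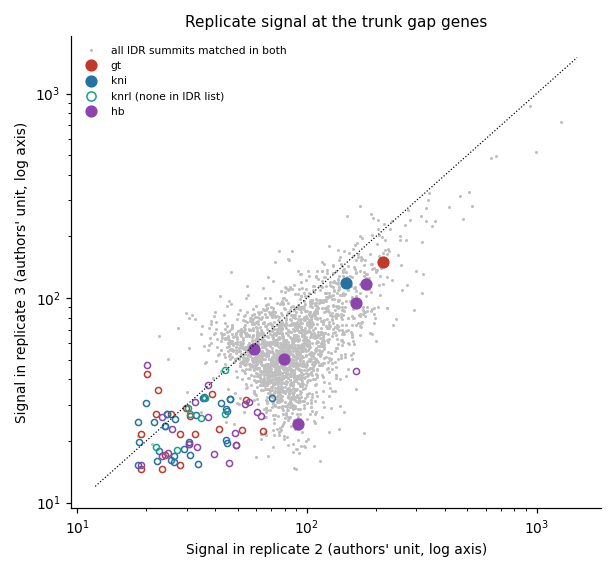
Signal in replicate 3 against replicate 2 (authors' unit, both axes log) for summits matched in both replicates; filled circles are IDR summits of gt, kni and hb, open circles other pooled summits of the 4 genes, grey points all IDR summits, and the dotted line marks equal signal. The 4 highest summits, between 148 and 215 in replicate 2, lie apart from the open circles, while 1 hb summit falls low in replicate 3 at 24.1. The open circle at 163 in replicate 2 is a weak summit that takes its match from the adjacent strong hb peak.

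Below the IDR list, summits of the permissive list, whose q-values reach 0.763, were dense around 3 of the genes. Such density was not confined to them, and values for other genes of the network are given further below. The pooled list held 32 summits in the gt window, 40 at kni, 35 at hb and 20 at knrl, where the median protein-coding gene had 9. Per 10 kb of window these were 7.65 at gt, 9.29 at kni, 7.47 at hb and 3.15 at knrl, against a median of 2.12. At least as many per 10 kb were found at 1.17% of protein-coding genes for gt, 0.366% for kni, 1.43% for hb and 28.1% for knrl. The 2 replicate lists, called separately, gave 7.17 and 6.93 at gt, 8.59 and 8.13 at kni, 6.62 and 6.62 at hb, and 3.78 and 3.46 at knrl, in replicates 2 and 3. The order kni, gt, hb, knrl was the same in the pooled list and in both replicates, and gt and hb were close to each other in each.

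Coding sequence made up 14.4% of the window at gt, 5.06% at kni, 7.99% at knrl and 22.6% at hb, against a median of 29.5%. Among the 4679 genes with no more coding sequence than the hb window, the median density was 1.87 per 10 kb, and 3.08% of genes were at least as dense as gt, 1.05% as kni, 3.57% as hb and 31.4% as knrl. Pooled summits often came in pairs about 200 bp apart. With summits in runs of gaps up to 250 bp counted once, 28, 32, 25 and 18 were left at gt, kni, hb and knrl. Per 10 kb these were 6.69, 7.43, 5.34 and 2.83, against a median of 1.91. At least as dense were then 0.990%, 0.516%, 3.41% and 27.7% of genes, in the same order, so that the share for hb rose from 1.43% and hb no longer stood close to gt. Any part of open chromatin or of gene-poor sequence in these densities was not tested.

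**Figure D3:**
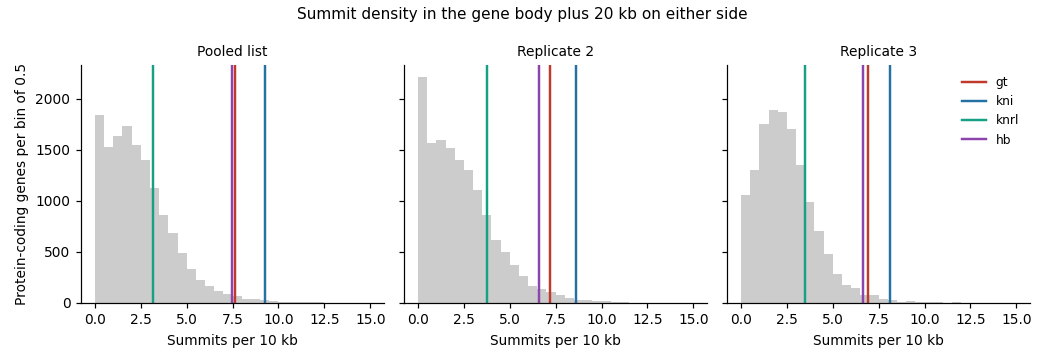
Number of protein-coding genes by summits per 10 kb of the gene body plus 20 kb on either side, in the pooled list and in each replicate list, with the 4 genes as vertical lines. Lines for kni, gt and hb stand in the upper tail of all 3 distributions (9.29, 7.65 and 7.47 in the pooled list) and knrl, at 3.15, stands nearer to the bulk.

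Of all 127 pooled summits, 82 were intergenic, 21 lay within 500 bp of a protein-coding TSS, 11 were in introns and 10 in coding exons. Shares for the whole pooled list are not given here, so these counts show no difference from it. A match in both replicates within 250 bp was found for 31 of 40 at kni (77.5%, Wilson 95% interval 62.5 to 87.7) and for 28 of 35 at hb (80.0%, 64.1 to 90.0). For gt it was 19 of 32 (59.4%, 42.3 to 74.5) and for knrl 8 of 20 (40.0%, 21.9 to 61.3). Over the whole pooled list it was 52.5%. Adjacent pooled summits can share 1 replicate summit, and where summits are dense a match is easier to find. Intervals cover counting error only.

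The word stood at a larger share of the strong summits than of the weak ones. Within 100 bp, AAGGGTT stood at 5 of the 7 IDR summits of the 4 genes (71.4%, Wilson 95% interval 35.9 to 91.8), and at 10 of their 120 other pooled summits (8.33%, 4.59 to 14.7). The share was 12.5% over all IDR summits, 4.96% over all pooled summits, 1.86% in windows 1 kb beside IDR summits and 1.63% at protein-coding TSSs. These sets were not matched to the 7 for rank. The summits ranked 53, 119, 150 and 159 all held the word, whereas of those ranked 1166, 1458 and 1748 only the first did. Whether summits of like rank elsewhere hold it as often was not tested. Presence of the word at gt, kni and hb was known beforehand, so the difference is given without a test. The intervals treat summits as independent, though 5 of the 7 lie at hb and 2 of these overlap. With 1 more base, AAAGGGTT, the same count of 5 of 7 was found, against 8.99% of all IDR summits. GGGTTAA, which overlaps the end of the core word, stood at 2 of 7, against 6.80% of all IDR summits.

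**Figure D4:**
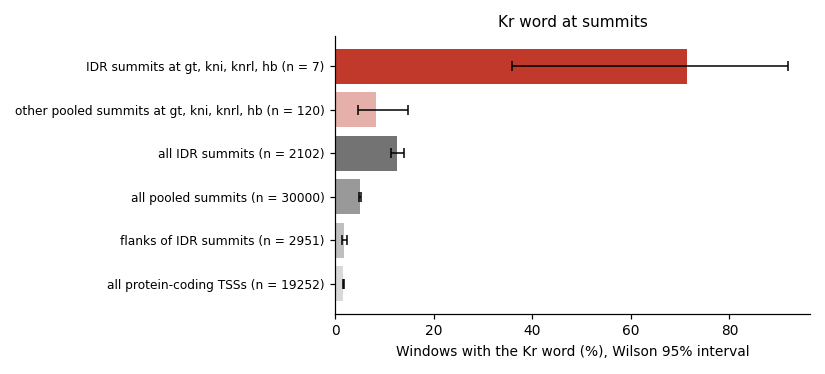
Share of 201-bp windows that hold the Kr word on either strand, in percent with Wilson 95% intervals, for summits at the 4 genes and for reference sets. The 7 IDR summits of the 4 genes reach 71.4% with an interval down to 35.9, and the other sets, not matched for rank, lie between 1.63% and 12.5%.

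Several copies at 1 summit were rare. Of the 2102 IDR summits, 2 had 3 or more copies within 100 bp, and the kni summit was 1 of them. Within 250 bp, 4 summits had 4 or more copies, and the kni and hb upstream summits were 2 of those 4. These limits were chosen after the copies at kni and hb were seen. Over the whole windows the word occurred 10 times at gt, 15 at kni, 10 at hb and 2 at knrl, or 2.39, 3.48, 2.13 and 0.315 per 10 kb, where the chromosome arms had 1.08. Of these copies, 5 of 10 at gt, 6 of 15 at kni, 6 of 10 at hb and 1 of 2 at knrl lay within 100 bp of a pooled summit. Positions that close to a summit made up 15.4%, 18.7%, 14.9% and 6.20% of the windows, in the same order.

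**Figure D5:**
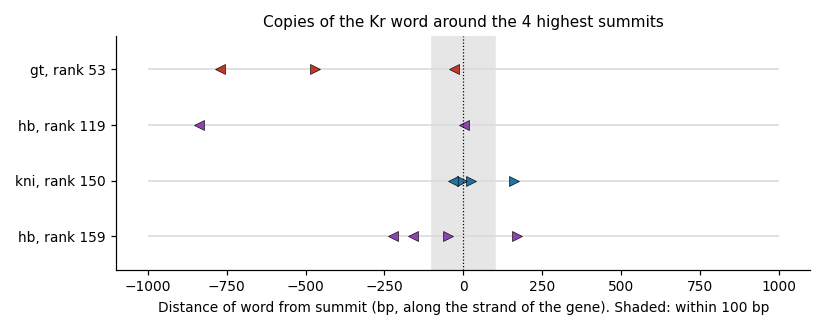
Copies of the Kr word within 1 kb of the 4 highest summits, by distance from the summit in bp along the strand of the gene; arrowheads give the direction of each copy and shading the 100 bp on either side. At kni and at the hb upstream summit (rank 159), 4 copies lie within 250 bp of the summit, and at gt and the hb downstream summit (rank 119) 1 copy does.

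Words of other early factors stood at fewer of the 7 sites. The Zelda word CAGGTAG stood within 100 bp at 2 of the 7 IDR summits, those of gt and kni, against 3.28% of all IDR summits and 1.08% of protein-coding TSSs. A Caudal word, TTTATGG, stood at 2 of 7, at kni and the hb upstream site, against 5.76%. The Bicoid word TAATCC was present at 1 of 7 against 6.37%. Neither CAAAAAA, a Hunchback word found at 13.0% of all IDR summits, nor GAGAGAG, the word of the GAGA factor found at 9.37%, was present at any of the 7. All were sought on both strands, and a match describes letters, not binding.

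Other genes of the same network differed in their number of IDR summits. Of 8 such genes, 4 had an IDR summit in the 20 kb window, against the 41.7% given above: Kr itself with 17, bicoid (bcd), which encodes the anterior morphogen, with 5, caudal (cad), a posterior activator, with 3 and tailless (tll), a terminal gap gene, with 2. At least as many were found at 0.0574%, 2.67%, 9.24% and 19.7% of protein-coding genes, in that order. The terminal gap gene huckebein (hkb), nanos, which limits maternal hb translation, the pioneer factor gene zelda (zld) and eagle (eg), the remaining gene of the knirps family, had 0. The best pooled rank at zld, 2179, was just below the 2102 peaks of the IDR list. An IDR summit among the 200 highest was found for Kr only, against gt, kni and hb of the 4 trunk genes. That limit was chosen after the values were seen. The best pooled ranks at bcd and cad were 312 and 343, so the contrast depends on it. In the knirps family only kni had an IDR summit: the best pooled ranks in the windows were 150 at kni, 2600 at knrl and 6815 at eg. Pooled summits per 10 kb were 11.4 at Kr, above all 4 trunk genes, and 6.42 at bcd, 6.3 at cad and 6.18 at tll. At least as dense were 0.0645%, 2.99%, 3.23% and 3.51% of protein-coding genes, in that order. The densities at hkb, zld, eg and nanos were 5.28, 4.91, 3.07 and 3.03, with shares of 6.53%, 8.5%, 29.7% and 30.4%.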

How the data were processed

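Per the labels, chromatin of Kr-GFP embryos was sonicated and precipitated with an antibody to GFP, and 2 biological replicates were sequenced. Per the notes deposited with the files, permissive lists were derived by the authors from the alignments of replicate 2, of replicate 3 and of the pair combined, each with a further file that is not described there. The labels name a possible control, not analysed here. All 3 permissive lists went into the IDR list. The sources used here name neither aligner, peak caller nor IDR threshold. The deposited files give a signal per peak, of unstated scale, and −log10 of a q-value. The largest q of an IDR peak was 0.00325, against 0.763 in the pooled list. The 2102 IDR peaks were exactly the highest of the pooled list. Depth is unknown, since no counts are given, so the 2 replicates are the only measure of spread. The dm3 lists were not used.

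Summits, 1-based on dm6, were placed against protein-coding genes on the chromosome arms in Ensembl release 115 of BDGP6. Sequence came from the RefSeq release 6 genome, in which 99.8% of annotated start codons read ATG and every peak lay within its chromosome. The nearest replicate summit within 250 bp was taken as a match. Words were sought within 100 bp of a summit on both strands. Genes named beyond the 4 are 8 of the same network and the nearest TSS of IDR summits. The members and lists were chosen with earlier results of these data known. Enhancer positions were read from published names. Scripts used Python 3.11.15, pandas 2.3.3 and scipy 1.17.1, and counting and word search were tested on simulated data. With 1 group no test between conditions was made. Alternatives were other windows, match distances, words, promoter widths and peak lists.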

Additional observations from a re-analysis of the deposited data

How the results depend on the processing

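The 3 genes gt, kni and hb had an IDR summit in windows of 5, 10 and 20 kb, among the 1051 highest IDR peaks, and in the 2102 highest peaks of either replicate alone. The number of IDR summits, 7, fell to 3 with a window of 5 kb and to 4 among the 1051 highest peaks, since both take fewer peaks by construction. Among the 2102 highest peaks of replicate 3 alone it was 7, and of replicate 2 alone also 7, but the summits were not all the same. Replicate 3 lost the overlapping downstream peak of hb (rank 9851) and gained a summit at -1651 bp from P1 (rank 1870). Replicate 2 lost the farther upstream summit of hb (rank 2835) and gained the kni start summit (rank 1749). With replicate 2 alone kni thus had 2 and hb 4. Merging overlapping IDR peaks left 6. Of the 7 IDR summits, 6 were matched in both replicates within 100 bp. The count with the Kr word, 5, was 4 within 50 bp of the summit and 2 with the word GGGTTAA. The count of IDR summits at a start site of the member, 1, was the same within 250 and 1000 bp. Of all 2102 IDR summits, 28.9% lay within 500 bp of a TSS of any protein-coding gene. That share is not comparable with the count of 1, which takes only start sites of the member. Under the wider measure the downstream hb summits would count too, at 402 and 202 bp from CG44227 and 120 bp from mRpL19. Counting close summits once, chosen after seeing the data, kept each count of pooled summits within 1.5 times. No paired analysis was possible because the series has 1 group. Unknown depth and 2 replicates limit every value, and the collection of 0 to 10 h mixes stages.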
